A study of Mus musculus with 8 samples.

Results

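The genes described here encode the subunits of the proteasome, its regulators and its assembly helpers. They were taken as every probe set of the array whose single annotated mouse symbol began with Psma, Psmb, Psmc, Psmd, Psme, Psmf or Psmg, with the inducible catalytic subunits Psmb8, Psmb9 and Psmb10 left out. The rule found 99 probe sets of 46 genes, among 34958 probe sets of 18193 genes that carried 1 symbol. Of these, 75 probe sets of 44 genes were bright enough to be tested, against 11719 tested genes in all.

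The proteasome is the barrel-shaped protease that degrades proteins tagged with ubiquitin. Its core particle is built of stacked rings of α and β subunits, and the β rings hold the protease sites on the inside. A regulatory cap binds the ends of the barrel, recognises the ubiquitin chain, removes it and threads the unfolded protein inward with a ring of ATPases. Other activators can take the place of the cap, and dedicated chaperones put core and cap together.

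The study asked which gallbladder genes respond to leptin in mice that cannot make it. All animals were female B6.V-lepob obese mice, which carry the obese mutation of the leptin gene, were fed standard chow and were fasted overnight before the gallbladder was removed at 12 weeks of age. For 4 weeks they were injected each day with recombinant mouse leptin at 5 µg per g body weight or with saline. RNA came from pools of 3 gallbladders, 4 pools with leptin (numbered 5 to 8 in the labels) and 4 with saline (1 to 4), and each pool was read on 1 array. A pool averages 3 animals, so the spread between pools understates that between mice, and the number of pools limits the precision of every value below.

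Each array gives 1 signal per probe set, an intensity on a linear scale. A gene was read from the brightest of its probe sets, fold changes are on the scale log2(signal + 8.2), leptin minus saline, and a gene was called when its Benjamini-Hochberg adjusted p over all tested probe sets was under 0.05 in limma. At this threshold 1561 of 22519 probe sets were called (6.93%), 798 of them higher and 763 lower with leptin. The whole tissue was measured, so fewer cells of a type and less RNA per cell cannot be told apart.

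Several measures of the samples moved with treatment. Of the gallbladder epithelium markers, Krt7, Krt8 and Krt18 were called lower and the other 4 tested did not pass. Among those 4, Krt19 was at -0.40. Epcam, Sox17 and Cftr overlapped between treatments, at -0.0062, -0.069 and -0.12, so the markers that were not keratins showed little change. The summed signal of all 8 epithelial markers was 23946 to 27306 in the leptin pools and 31065 to 38509 in the saline pools. All 10 macrophage markers were called higher (summed signal 10366 to 13062 with leptin and 4537 to 5888 with saline), as were all 4 tested B and plasma cell markers (12719 to 20633 against 378 to 485). Actg2 was called lower among 6 smooth muscle markers, whose summed signals overlapped, at 33321 to 42452 with leptin and 34797 to 46372 with saline. Among 4 tested adipocyte markers Cidec was called lower (summed signal 3062 to 5174 with leptin and 3246 to 11256 with saline). Hepatocyte markers were bright in both treatments, at 63739 to 72668 with leptin and 48198 to 79802 with saline, and Apoa1 was called higher among 5. Neither of the 2 tested pancreatic acinar markers was called. No marker was at 0 in every pool. The ratio of 3′ to 5′ actin signal is a measure of RNA integrity. It ran from 1.67 to 2.17 with leptin and from 1.50 to 1.68 with saline. The same ratio for Gapdh did not move with treatment, at 0.79 to 0.85 with leptin and 0.77 to 0.87 with saline. The median signal of an array ran from 94.0 to 107 with leptin and from 77.8 to 87.3 with saline. The part of these shifts in the results below was not tested, except where a value is given.

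The core and cap subunits that passed the test were all lower with leptin. Of 31 tested core and cap genes, 8 were called lower and none higher, beside 3.98% of all tested genes called lower and 4.29% called higher. Those 8 were Psmb2, Psmb3, Psmb5 and Psmb7 of the core and Psmc1, Psmd1, Psmd7 and Psmd14 of the cap, and their log2 fold changes lay between -0.52 and -0.37. All 31 fitted values were below 0, beside 47.4% of all tested genes, with a median of -0.35, which is 0.785-fold, beside a median of 0.02 over all tested genes. In 21 of the 31 genes every leptin pool lay below every saline pool, which held for 8.58% of all tested genes. At an unadjusted p under 0.05, 23 of the 31 passed, beside 25.5% of all tested genes in either direction and 12.8% lower, and at an adjusted p under 0.1 the count was 16, beside 7.07% of all tested genes lower at that threshold.

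The count of calls depended on single pools, while the direction rarely did. Leaving out saline 1 gave 10 called core and cap genes, and leaving out saline 2, 3 or 4 gave 2, 3 and 2. Without leptin 5, 6, 7 or 8 the counts were 4, 2, 2 and 3. Calls over the whole array fell too. The share of all tested genes called lower was 3.98% with all pools and 2.05% to 3.61% without 1 pool. Psmd1 and Psmd14 were called each time, and at least 30 of the 31 genes were below 0 each time. Centring each array on the median of the tested probe sets, in place of its trimmed mean, raised the core and cap count to 16, while quantile normalization left 2, no filter on dim probe sets 3 and no mean-variance trend 2. In these fits, in that order, the share of all tested genes called lower was 6.89%, 2.81%, 1.82% and 1.94%. The same centring moved the split over the whole array from 798 higher and 763 lower to 619 and 1322. With the actin ratio as a covariate the whole-array split was 249 higher and 405 lower. That ratio itself moved with treatment, so this fit cannot fully separate it from leptin. In that fit 29 of 31 core and cap genes were below 0 with a median of -0.33, but Psmb7 alone was called. Over all tested genes 2.24% were called lower there.

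Brightness moved with the same result, because bright probe sets as a whole were lower with leptin. In the brightest quintile of all tested genes the median log2 fold change was -0.12 and 9.68% were called lower, while in the dimmest quintile the median was 0.20. The brightest quintile held 28 of the 31 core and cap genes, whose median was -0.35. Across the 4121 tested genes within the brightness range of the core and cap, the median was -0.083, 62.1% were below 0, 7.62% were called lower, 3.76% were called higher and 15.5% had all leptin pools below all saline pools. The core and cap counts, 8 of 31 called and 21 of 31 without overlap, stand beside these shares.

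**Figure D1:**
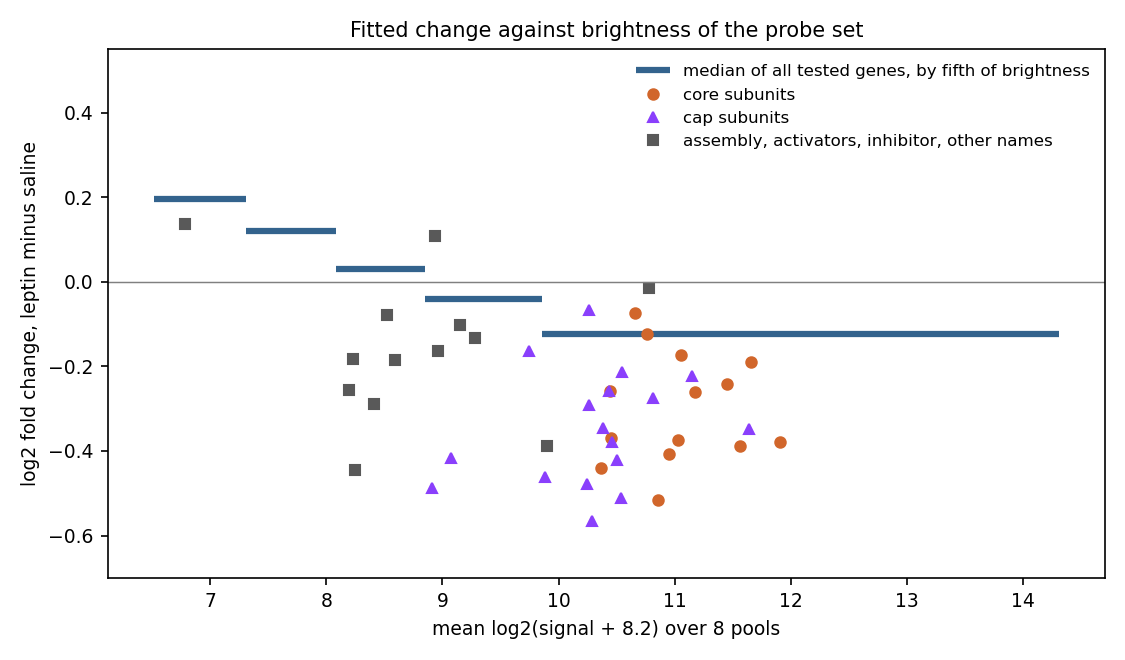
Log2 fold change (leptin minus saline) of each tested proteasome gene against the mean log2(signal + 8.2) of its probe set over 8 pools. Blue lines are the medians of all tested genes by quintile of brightness, falling from 0.20 to -0.12, and 28 core and cap genes lie in the brightest quintile around a median of -0.35.

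The α ring forms the outer gate of the core. Its 7 tested genes were all below 0, with a median log2 fold change of -0.19, and none was called in limma, with 3 at an unadjusted p under 0.05. Values ran from -0.41 for Psma7 to -0.075 ± 0.13 (SE) for Psma1, and in 5 of the 7 the leptin pools lay entirely below the saline pools. Psma7 came closest to the threshold. Its signals were 1843, 2284, 2428 and 2602 in saline pools 1 to 4 and 1715, 1715, 1698 and 1713 in leptin pools 5 to 8. The leptin pools were nearly alike and all below the lowest saline pool, and limma gave a log2 fold change of -0.41 ± 0.11 with an adjusted p of 0.051. The second, dimmer probe set of Psma7 did not show this separation. Its pools overlapped, at -0.14 ± 0.21. Psma1 overlapped between treatments, with a saline range of 1396 to 2131 and a leptin range of 1507 to 1636.

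The β ring carries the protease activity, in Psmb5 (chymotrypsin-like), Psmb6 (caspase-like) and Psmb7 (trypsin-like). All 7 tested β genes had every leptin pool below every saline pool, 4 were called, and the median log2 fold change was -0.38, from -0.52 for Psmb5 to -0.26 for Psmb6. Psmb5 read 1832, 2081, 2316 and 2671 in the saline pools and 1603, 1615, 1292 and 1677 in the leptin pools. Saline 4 was its highest pool and leptin 7 its lowest, and the fall was -0.52 ± 0.13 (SE) with an adjusted p of 0.035. Psmb7 read 4126, 4473, 4468 and 4367 with saline and 3961, 3219.5, 3011 and 3271.5 with leptin. Leptin 5 stood nearest the saline pools, and the log2 fold change was -0.38 ± 0.10 with an adjusted p of 0.042. Psmb6 read 1397, 1463, 1421 and 1793 with saline and 1328, 1256, 1282 and 1185 with leptin. Its groups were separate by a small margin and it did not pass, at -0.26 ± 0.11 with an adjusted p of 0.18.

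Psmb2 and Psmb3 are structural β subunits without protease activity of their own. Psmb2 read 1375, 1431, 1496 and 1871 with saline and 1196, 1140.2, 1135 and 1039 with leptin. All leptin pools were lower, with saline 4 standing above the other saline pools, and the fall was -0.44 ± 0.12 on the log2 scale (adjusted p 0.042). Psmb3 read 1461, 1624, 1603.5 and 1651 with saline and 1298, 1129.7, 1264 and 1207 with leptin. Its groups did not overlap, at -0.37 ± 0.10 with an adjusted p of 0.045, but its second, dimmer probe set gave -0.21 ± 0.21 and was not called. Psmb2, Psmb3 and Psmb5 each lost the call when any 1 of 7 of the 8 pools was left out, with adjusted p up to 0.109, 0.124 and 0.091. Psmb7 lost it for 6 pools, with adjusted p up to 0.114. Psmb1 and Psmb4 were at -0.37 and -0.39 with adjusted p of 0.064 in both.

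The 2 remaining core genes were too dim to test. Psma8, an α subunit known from testis, had signals of 5.30 to 52.4, and Psmb11, the β subunit of thymic epithelium, had signals of 4.0 to 142. Against a background of 46.0, set from bacterial control probe sets, Psma8 was under it in 3 of 4 pools of each treatment and Psmb11 in 3 saline and 2 leptin pools.

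The cap's base holds a ring of 6 ATPases that unfold the substrate and open the gate of the core. All 6 were below 0, with a median log2 fold change of -0.26, and 1 was called. Psmc1 read 1013, 1181, 1027 and 1206 in the saline pools and 894, 779.5, 789.6 and 738 in the leptin pools. No leptin pool reached the lowest saline pool, and the log2 fold change was -0.46 ± 0.11 (SE) with an adjusted p of 0.030. That call was lost on leaving out saline 2, saline 4, leptin 6, leptin 7 or leptin 8, with adjusted p up to 0.097. Psmc4 had the lowest fitted value of all core and cap genes, -0.56 ± 0.16, and did not pass (adjusted p 0.0504). Its signals were 1672, 1589, 1332 and 1482 with saline and 755, 984, 1074 and 1358 with leptin. Leptin 8 reached above saline 3, and the leptin pools were spread more widely than for the other ATPases. The second, dimmer probe set of Psmc4 gave a smaller value, -0.29 ± 0.11 with an adjusted p of 0.14. There every leptin pool lay below every saline pool. Psmc6 was at the other end, with -0.066 ± 0.11 and overlapping pools.

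The other 11 cap subunits form its scaffold and lid and bind or trim ubiquitin chains. All 11 were below 0, with a median log2 fold change of -0.38 and a range from -0.51 for Psmd14 to -0.16 for Psmd3. In 7 of them the groups did not overlap, and 3 were called. Psmd14, the metalloprotease of the lid that cuts the ubiquitin chain from the substrate, read 1762, 1575, 1852 and 1876 with saline and 1169, 1302, 1298.5 and 1169.9 with leptin. Every leptin pool lay below every saline pool, with the 4 leptin values close together, and the fall was -0.51 ± 0.10 with an adjusted p of 0.011. Mean signal was 1766 ± 137 (SD, n = 4) with saline and 1235 ± 75.7 with leptin, 30.1% lower.

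Psmd1, the large scaffold protein of the base, read 1428, 1436, 1514 and 1321 in the saline pools and 1041, 964, 1046 and 1030.4 in the leptin pools. The groups were well apart, and the log2 fold change was -0.48 ± 0.10 (SE) with an adjusted p of 0.014. Psmd7, the lid partner of Psmd14, read 526, 557, 531 and 639.9 with saline and 379, 417, 352 and 452 with leptin. All its leptin pools were lower, at -0.49 ± 0.13 with an adjusted p of 0.042, and leaving out any 1 of the 8 pools lost the call, with adjusted p from 0.051 to 0.109. Psmd1 and Psmd14 kept theirs whichever pool was left out, with adjusted p up to 0.0496 and 0.041. With the actin ratio as a covariate both lost it, at -0.52 and -0.41 with adjusted p of 0.088 and 0.163. Because that ratio moved with treatment, its part in the lost calls cannot be told apart from that of leptin. Psmd13, Psmd12, Psmd11 and Psmd8 lay between -0.42 and -0.35 with adjusted p between 0.053 and 0.072.

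**Figure D2:**
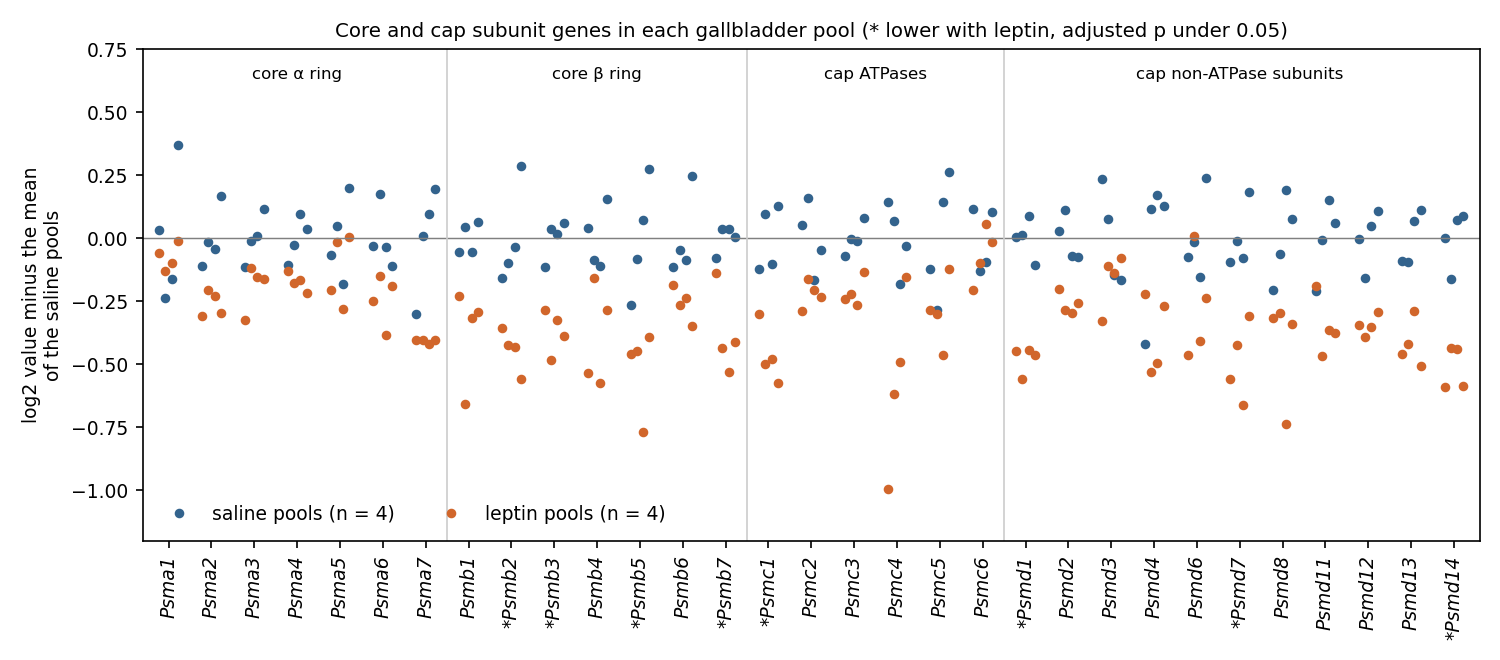
Log2(signal + 8.2) of each tested core and cap gene in every pool, minus the mean of that gene's 4 saline pools, grouped by role, where blue points are saline pools and orange points leptin pools. The groups do not overlap in 21 of 31 genes, among them all 7 of the β ring, and asterisks mark the 8 genes called lower.

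Taken over all core and cap genes, the saline pools differed more than the leptin pools did, though not in every class. Averaged over the 31 core and cap genes, each taken as its deviation from its own mean over 8 pools, the saline pools stood at 0.09, 0.15, 0.15 and 0.27 and the leptin pools at -0.17, -0.16, -0.20 and -0.12 on the log2 scale. For the core the SD of these averages was 0.105 with saline and 0.034 with leptin, and for the cap 0.049 and 0.042. For the cap ATPases alone it was 0.063 and 0.075, and the spreads were not tested. Saline 4 was the highest saline pool in 19 of 31 genes and saline 1 the lowest in 16, while leptin 7 was the lowest leptin pool in 11. Leptin 5, 6 and 8 were the highest leptin pool in 10, 9 and 9 genes. Leptin 5 was the highest leptin pool in the β ring average (-0.12) but the lowest in that of the cap ATPases (-0.23). The 7 β ring genes stood at 0.09, 0.17, 0.17 and 0.35 with saline and -0.12, -0.21, -0.26 and -0.19 with leptin. The same averages for the α ring were 0.01, 0.10, 0.07 and 0.24 against -0.14, -0.07, -0.14 and -0.08. Both rings thus had all leptin pools below all saline pools, and the difference between the rings was not tested.

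**Figure D3:**
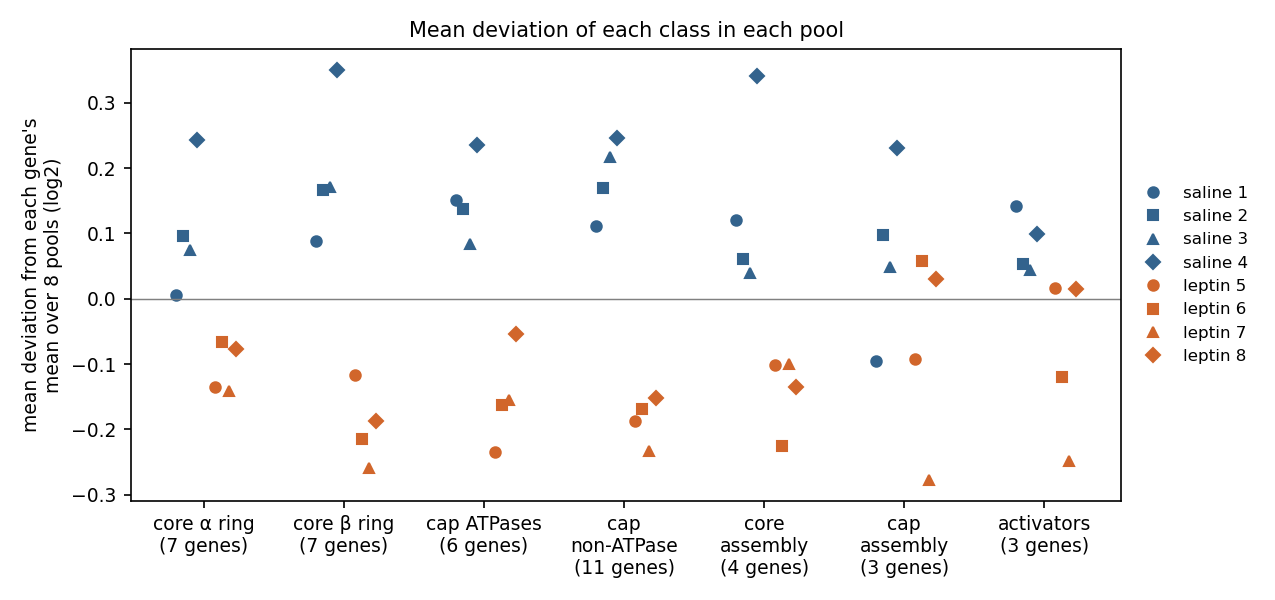
Mean deviation (log2) of the genes of each class from their own mean over 8 pools, 1 point per pool, blue for saline and orange for leptin, with a symbol for each pool. The treatments are separate for both core rings, both cap classes and core assembly, and overlap for cap assembly, while the 3 activators are separate only by a narrow margin, with saline from 0.04 to 0.14 and leptin from -0.25 to 0.02.

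Genes outside core and cap were 13 among those tested. Of these, 11 were below 0, none had separate groups and none was called, with 2 at an unadjusted p under 0.05. With 3.98% of all tested genes called lower and 4.29% higher, a count of 0 among 13 is near the background. The core assembly chaperones Psmg1 to Psmg4, which pair up to seed the α ring, had a median log2 fold change of -0.27, from -0.44 for Psmg2 to -0.13 for Psmg1. Psmg2 read 370.1, 307, 323 and 389.7 with saline and 229.8, 229, 318 and 241 with leptin. Leptin 7 alone lay within the saline range, and the fitted value was -0.44 ± 0.16 (SE) with an adjusted p of 0.105. On leaving out 1 pool the adjusted p ran from 0.048, without leptin 7, to 0.221. The dimmer tested probe set of Psmg2 overlapped between treatments, at -0.13 ± 0.23. The cap assembly chaperones Psmd5, Psmd9 and Psmd10, which hold the ATPases until the base is complete, had values from -0.18 for Psmd9 to -0.079 for Psmd10. Psmd5, the one with the lowest p, read 483, 442, 552 and 617 with saline and 439, 475, 529.7 and 415 with leptin, with wide overlap (-0.16 ± 0.14, adjusted p 0.52).

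The activators had a median log2 fold change of -0.10, and 1 of the 3 was at an unadjusted p under 0.05. Psme1, a subunit of the interferon-inducible activator ring, read 1694, 1592, 1685 and 2081 with saline and 1615, 1849, 1671 and 1822 with leptin. Its pools were interleaved, at -0.014 ± 0.11 (SE), and its sign changed with the scaling, to 0.11 under quantile normalization. Psme3, the nuclear activator, was at -0.10 ± 0.13. Psme4, the large single-chain activator known for histone turnover, read 1082, 1234, 1006 and 1037 with saline and 1012, 744, 658 and 946 with leptin. Leptin 5 fell just inside the saline range, and the value was -0.39 ± 0.15 with an adjusted p of 0.13. Its dimmer tested probe sets gave smaller values, -0.14 ± 0.11 and -0.12 ± 0.12, with overlapping pools. Psme2, the partner of Psme1, shares its probe set with Psme2b in the annotation, so the rule left it out and its value is not given.

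The inhibitor Psmf1 read 376, 411, 445 and 388 with saline and 325, 375, 445 and 290.2 with leptin, overlapping at -0.19 ± 0.15 (SE, adjusted p 0.49). Its dimmer tested probe sets ran from -0.074 to 0.62. Psme3ip1 and Psmc3ip fit the rule without being subunits. Psme3ip1, a protein that binds Psme3, read 360.4, 468, 491 and 551 with saline and 555, 469, 498 and 479 with leptin, a difference of 0.11 ± 0.15 within the spread of the pools. Psmc3ip, a factor of meiotic recombination, was at 0.14 ± 0.29.

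**Figure D4:**
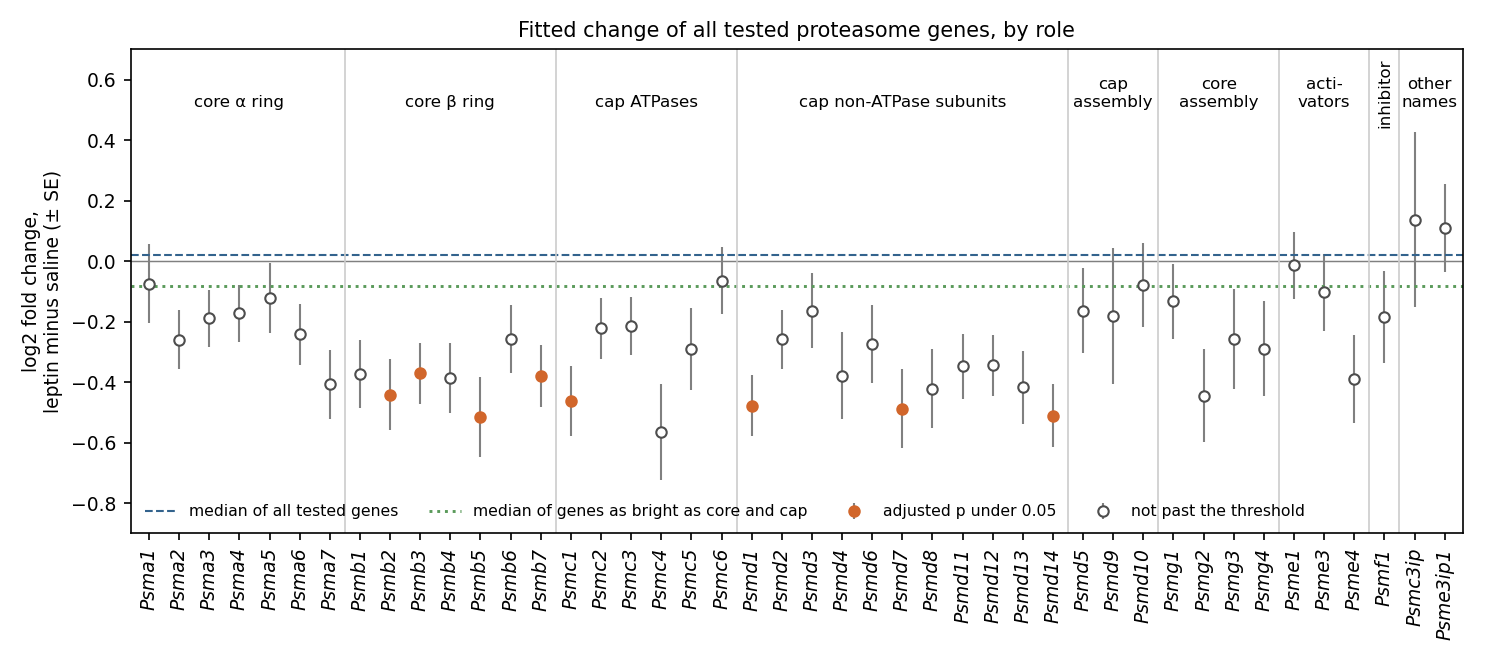
Log2 fold change (leptin minus saline, points) with its SE (bars) for all 44 tested proteasome genes, grouped by role, where filled points are the 8 called lower. The dashed line is the median of all tested genes (0.02) and the dotted line that of genes as bright as core and cap (-0.083), and most core and cap points lie below both.

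Genes with several probe sets did not always give 1 answer. Over all 75 tested probe sets of the 44 genes, 62 were below 0, 8 were called lower and none higher, beside 3.39% of all tested probe sets called lower. Of 19 genes with 2 or more tested probe sets, 12 had values of 1 sign and 7 of both signs. Those 7, each with its brightest probe set first, were Psma6 (-0.24, with others up to 0.11), Psmb1 (-0.37, up to 0.086), Psmc6 (-0.066, up to 0.23), Psmd4 (-0.38, up to 0.25), Psmd11 (-0.35, up to 0.070), Psmd13 (-0.42, up to 0.31) and Psmf1 (-0.19, up to 0.62). Since each brightest probe set was below 0, the values above 0 had to come from dimmer ones, and none of those passed the threshold. The highest of Psmf1 (0.62 ± 0.25, SE) and of Psmd13 (0.31 ± 0.22) nevertheless had every leptin pool above every saline pool. For Psmd11 all dimmer tested probe sets lay near 0, from -0.023 to 0.070. Suffixes that the array maker uses where probes may bind other transcripts were on 11 of the 75. Averaging a gene's probe sets in place of the brightest gave 10 called core and cap genes, beside 3.41% of all tested genes called lower. With that averaging 30 of 31 were below 0, the median was -0.27, and Psmb3 was no longer among the called.

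The stretches of DNA just before the start sites are shown for 4 of the called genes, since core and cap genes moved together and motifs in these stretches are known from work on proteasome genes. The RefSeq table (mouse build GRCm38.p6) held a promoter for 38 of the 46 genes, 25 of the 31 tested core and cap genes, and 5 of the 8 called genes. The 250 bases before each start were searched on both strands for the antioxidant response element TGACNNNGC, the CCAAT box CCAAT, the ETS site CCGGAAG, the interferon GAS element TTCNNNGAA, where N is any base, and the interferon-stimulated response element (ISRE). Psmb5 lies on the minus strand (window chr14:54617996-54618245). Psmc1 (chr12:100109952-100110201), Psmb3 (chr11:97703184-97703433) and Psmd14 (chr2:61711444-61711693) lie on the plus strand. Capitals mark the matches, each sequence runs 5′ to 3′ toward the gene, and no other RefSeq gene overlapped these windows.
Psmb5: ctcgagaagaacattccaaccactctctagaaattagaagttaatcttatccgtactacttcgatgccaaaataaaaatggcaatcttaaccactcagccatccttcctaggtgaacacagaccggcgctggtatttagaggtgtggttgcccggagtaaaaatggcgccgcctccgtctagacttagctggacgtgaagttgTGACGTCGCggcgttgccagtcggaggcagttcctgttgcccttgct
Psmc1: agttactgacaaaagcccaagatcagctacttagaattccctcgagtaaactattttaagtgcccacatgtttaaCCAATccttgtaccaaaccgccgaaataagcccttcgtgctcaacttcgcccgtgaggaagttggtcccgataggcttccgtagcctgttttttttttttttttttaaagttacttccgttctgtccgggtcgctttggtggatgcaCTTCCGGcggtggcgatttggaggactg
Psmb3: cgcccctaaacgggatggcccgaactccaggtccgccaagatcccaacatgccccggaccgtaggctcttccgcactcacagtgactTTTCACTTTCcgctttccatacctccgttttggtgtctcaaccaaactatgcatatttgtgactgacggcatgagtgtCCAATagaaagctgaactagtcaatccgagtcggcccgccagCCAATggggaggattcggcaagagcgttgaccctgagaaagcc
Psmd14: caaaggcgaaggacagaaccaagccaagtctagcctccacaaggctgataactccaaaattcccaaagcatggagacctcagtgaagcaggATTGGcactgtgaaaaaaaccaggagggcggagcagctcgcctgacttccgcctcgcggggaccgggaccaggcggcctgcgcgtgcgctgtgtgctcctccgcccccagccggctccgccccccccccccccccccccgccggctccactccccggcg

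In Psmb5 the match TGACGTCGC to the antioxidant response element began 47 bases before the start. Psmc1 had a CCAAT box 175 bases and an ETS site, read as CTTCCGG on this strand, 28 bases before the start. Psmb3 had CCAAT boxes at 85 and 43 bases and an ISRE match, read as TTTCACTTTC on this strand, at 163 bases, and Psmd14 had a CCAAT box, read as ATTGG, at 159 bases. The window of Psmd1 held none of the 5 motifs. An ETS site was found for 9 of the 25 core and cap genes (36.0%) and in 7.83% of all 27025 genes in the table. The CCAAT box was found for 10 of 25 (40.0%, beside 37.5% of all genes), the antioxidant response element for 4 (16.0%, beside 11.5%), the ISRE for 2 (8.0%, beside 3.46%) and the GAS element for none (beside 8.13%). Matches of different motifs shared bases in none of these core and cap promoters. Other features in which these promoters may differ from all promoters, such as base composition, were not matched, and a match of letters does not show that a factor binds.

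In cells exposed to interferon the inducible subunits Psmb8, Psmb9 and Psmb10 replace Psmb5, Psmb6 and Psmb7, and of these Psmb8 was called higher with leptin. Psmb8 read 206, 265, 284 and 212 with saline and 478, 365, 364 and 433 with leptin, with every leptin pool higher (log2 fold change 0.75 ± 0.16, SE, adjusted p 0.015). Psmb9 (0.60 ± 0.17, adjusted p 0.051) and Psmb10 (0.48 ± 0.14, adjusted p 0.059) did not pass, though their leptin pools too lay above all saline pools, which held for 8.45% of all tested genes.

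A ratio taken within a pool does not depend on a scaling factor that is shared by the whole array. Set to the saline mean, the log2 ratio of Psmb8 to Psmb5 was 0.05, 0.22, 0.17 and -0.45 in the saline pools and 1.43, 1.04, 1.35 and 1.23 in the leptin pools. The ratio of Psmb9 to Psmb6 was 0.10, -0.07, 0.09 and -0.12 against 1.14, 0.51, 0.85 and 0.93, and that of Psmb10 to Psmb7 was 0.29, -0.14, -0.30 and 0.15 against 0.65, 0.74, 1.14 and 0.88. The differences were 1.26 ± 0.18, 0.86 ± 0.14 and 0.85 ± 0.17 (SE), or 2.40-fold, 1.81-fold and 1.81-fold. Under quantile normalization they were smaller, from 0.66 to 1.08. Since each numerator already had all leptin pools above and each denominator all leptin pools below the saline pools, the ratios had to separate, and no test is given. The ratios were chosen after earlier results had shown Psmb8 higher, and the macrophage and B cell markers given above moved the same way as the inducible subunits, which was not tested further.

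**Figure D5:**
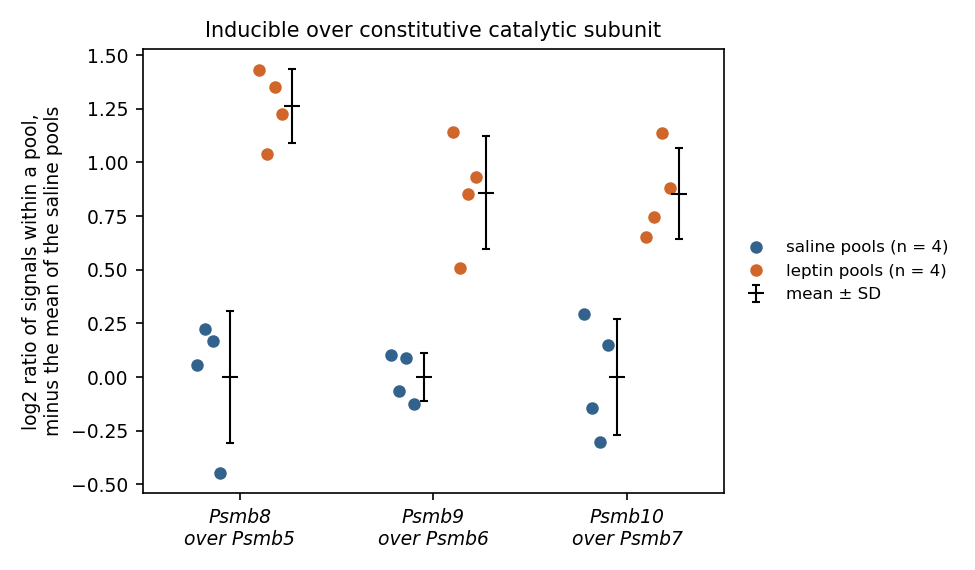
Log2 ratio of each inducible catalytic subunit to its constitutive counterpart within a pool, minus the mean of the 4 saline pools, with points for pools (blue saline, orange leptin) and black bars for the mean ± SD (n = 4). The ratios separate by treatment, as their numerators and denominators already did, with mean differences of 1.26, 0.86 and 0.85.

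Among other genes of the pathway the share called was near that of all tested genes. Lists of proteasome-associated factors, transcription factors of proteasome genes, ubiquitin and its E1 enzymes, and shuttle proteins named 38 genes, of which 28 were analysed here and 27 of these passed the brightness filter. Of the 27, 1 was called higher and none lower, beside 4.29% and 3.98% of all tested genes, at a median log2 fold change of -0.15. That gene was Irf1, an interferon-induced activator of transcription, which read 537, 430.0, 564 and 591 with saline and 871, 737, 847 and 807.5 with leptin. All its leptin pools were above all saline pools, at 0.62 ± 0.13 (SE) with an adjusted p of 0.014. None of the 12 associated factors was called in limma, with 5 at an unadjusted p under 0.05, all lower. At that threshold stood 25.5% of all tested genes in either direction and 12.8% lower. The lowest p among them was that of Ube3c, a ubiquitin ligase that binds the proteasome, with 486.5, 496, 527 and 454 against 406, 256, 319 and 376. Its groups did not overlap and it missed the threshold, at -0.54 ± 0.15 with an adjusted p of 0.053. None of 7 tested shuttle genes was called in limma, with 3 at an unadjusted p under 0.05. Those 3 were Vcp and Ubqln1, both lower, and Ubqln2, which was higher (0.40 ± 0.14). The lowest p was that of Vcp, the ATPase that pulls tagged proteins out of complexes and membranes. Its brightest probe set was at -0.28 ± 0.091 with an adjusted p of 0.082, but the mean of its tested probe sets gave 0.085. Uba6, an E1 enzyme that charges ubiquitin and the only tested gene of its list, was at 0.12 ± 0.19.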

How the data were processed

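Total RNA of 8 gallbladder pools was read on Affymetrix murine 430 2.0 arrays. Per the labels' design text and the submitters' processing notes, the authors made 1 MAS 5.0 intensity (signal) per probe set and array, and the deposited values lie on a linear scale. For the software build, the present or absent calls and the dates of scanning, the sources used here give nothing. Every array had a 2% trimmed mean of 250.0.

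After a check of that scaling, values were taken as log2(signal + 8.2), the 10th percentile of all signals. Of 45101 probe sets, 64 controls were left out, and the 22519 at or above the median mean value were tested with limma 3.58.1 (R 4.3.3; lmFit and eBayes with a mean-variance trend, Benjamini-Hochberg adjustment), 4 leptin against 4 saline pools, with no covariate. The test was checked on simulated data. Background was the 95th percentile of the signals of 27 bacterial control probe sets. Symbols came from the platform annotation, updated by Entrez identifier for 34754 of 34958 probe sets with 1 symbol; 932 had several symbols and 9211 had none. All value columns were used (0 left out).

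Per-pool values are printed for members that were called and, in a class with none, for the member with the lowest p. Members whose tested probe sets differ in sign or call, and the lowest and highest of each class, are named, as are the called genes of each pathway list or else the one with the lowest p. Values of Psme1, Psmc4, Psmb6, Psmb1, Psmb4 and the dim genes were added after they were seen. The members and lists were chosen with earlier results of these data known. Alternatives covered scaling, pseudocount, filter, variance model, array weights, the actin ratio, the probe set rule, the threshold and leaving out each pool.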

Additional observations from a re-analysis of the deposited data

Results flagged for a closer look

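In 6 of 174 groups of 4 pools examined, 1 pool stood apart from the others by Dixon's test at the 95% level, which chance alone flags in about 1 in 20 groups. Among the saline pools, saline 1 was low for the ubiquitin receptor subunit Psmd4, at 1196 beside 1736 to 1806 in the others. Leptin 7 was low for the lid subunit Psmd8, at 1001 beside 1318 to 1360. It was also low for Psma7, at 1698 beside 1713 to 1715, where the leptin pools were so alike that a small gap sufficed. For the core assembly chaperones, leptin 7 was high for Psmg2, at 318 beside 229 to 241, and low for Psmg3, at 214.1 beside 274 to 280.3. For Akirin2, which helps carry proteasomes into the nucleus, leptin 6 was high at 806.1 beside 634 to 651.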

How the results depend on the processing

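Results are given under the alternatives named here and a pseudocount of 1, of which centring on the median of all probe sets was chosen after seeing the data. The 44 tested proteasome genes had 8 called lower. This count was 2 under quantile normalization, 17 with arrays centred on the tested median, 30 with centring on the median of all probe sets, 3 with no filter, 13 above the 75th percentile, 2 without the variance trend, 13 with array weights, 1 with the actin ratio as a covariate, 16 at an adjusted p of 0.1, and 2 to 10 on leaving out 1 pool. The share of all tested genes called lower was 3.98% as reported. In the order of these counts it was 2.81%, 6.89%, 18.1%, 1.82%, 7.31%, 1.94%, 5.39%, 2.24%, 7.07% and 2.05% to 3.61%. Centring on all probe sets moved the median of all tested genes to -0.23 and the split over the array to 406 higher and 3586 lower, a shift shared by all genes. Relative to the median of all tested genes, the core and cap median was -0.37 as reported and -0.23 under quantile normalization. The share of higher calls also moved with the 75th percentile filter (462 higher and 817 lower) and without the trend (691 and 389). Genes called lower kept 2 of 8 under quantile normalization, 8 with array weights and 1 with the actin ratio.

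Core and cap medians were -0.20 and -0.25 under quantile normalization, -0.40 and -0.43 with the tested median, and -0.56 and -0.60 with the median of all probe sets, where activators were at -0.35. On leaving out 1 pool the cap median ran from -0.42 to -0.33. Probe sets called over the array numbered 3992 with centring on all probe sets, 654 with the actin ratio, 2763 at 0.1 and 878 to 1436 without 1 pool. Called pathway genes numbered 5 with the tested median, 11 with all probe sets, 3 above the 75th percentile, 5 with array weights, 0 with the actin ratio, 2 with the mean of probe sets, 6 at 0.1 and 1 to 2 without 1 pool.

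Signs turned for Psme1, Psmc6, Psma1, Psmd9, Psmd10, Psmf1, Psmc3ip, Psme3ip1, Uba6 and Vcp, none of which was called. Under quantile normalization Psme1 was at 0.105, Psmc6 at 0.0224, Psma1 at 0.0412 and Psmc3ip at -0.0891. With array weights Psme1 was at 0.0405 and Psma1 at 0.00625. With the actin ratio Psme1 was at 0.0752, Psmc6 at 0.141, Psma1 at 0.0223 and Psme3ip1 at -0.0568. With centring on all probe sets Psmc3ip was at -0.11, Psme3ip1 at -0.14 and Uba6 at -0.13. With the mean of probe sets Psmc6 was at 0.0766, Psmf1 at 0.129 and Vcp at 0.0849. On leaving out 1 pool the values ran from -0.0606 to 0.0676 for Psme1 (above 0 without saline 4, leptin 5 or leptin 7), from -0.144 to 0.00360 for Psmd10, from -0.348 to 0.0464 for Psmd9, from -0.154 to 0.0480 for Psma1, from -0.0744 to 0.283 for Psmc3ip, from -0.00854 to 0.192 for Psme3ip1 and from -0.00242 to 0.206 for Uba6. The cause of these changes was not tested. No paired analysis was possible because the labels number the pools 1 to 8 without a number shared between treatments. With 4 pools a treatment, precision is limited by their number.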
